A study of Mus musculus with 2 samples.

Results

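The S100a8-rich mature neutrophils were 1641 of the 12018 cells measured in 4T1 mammary tumours of mice treated with antibodies against Siglec-E, PD-1 or both, or with an isotype control (rat IgG2a). They were selected on their own transcript counts. S100a8 had to take a share of at least 0.4 of the cell's molecules over the 396 genes read in all tables, and Lgals1 a share under 0.01. In addition a cell could hold at most 1 molecule of Cd3d, Cd3e and Cd3g together and fewer than 3 of Chil3. S100a8, Lgals1, Cd3 and Chil3 levels therefore describe the choice and are no result. Since every other gene was counted in the same cells, differences between these cells and other cell sets are given as descriptions.

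The tumours grew from 4T1 cells, a BALB/c mammary carcinoma line, placed in a mammary fat pad of female BALB/c mice of 8 weeks. Antibodies were started after 7 days, when tumours measured about 70 mm3, and 2 tumours of the 6 mice in each arm were dissociated for single-cell counting. The anti-PD-1 pool was 1 sample that held the anti-PD-1 arm and the arm given anti-PD-1 with anti-Siglec-E, read under sample tags 3 and 4. The no-anti-PD-1 pool was the other sample and held the anti-Siglec-E arm and the isotype control arm, read under sample tags 1 and 2. All arms shared the tumour line, strain, sex and age. The labels do not say which of a pool's tags carried which arm, so values stand under tag numbers and none is assigned to a single arm. Cells of the tumours within an arm cannot be told apart, and each pool is 1 sample loaded on 1 cartridge, so pool and cartridge cannot be told apart and no test between pools exists. Epithelial cells, taken by their EPCAM protein, were mixed back with the other cells at 1 part to 4, which set the denominator of every share of all cells.

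Neutrophils are short-lived granulocytes that leave the bone marrow, circulate and enter inflamed tissue and tumours. S100a8 and S100a9 encode the paired subunits of calprotectin, a calcium-binding protein abundant in the neutrophil cytoplasm. Mature neutrophils carry the chemokine receptor Cxcr2, and neutrophils that have stayed in tissue are known to make chemokines and interleukin 1 family cytokines.

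The 4 tags held 1041, 192, 251 and 157 S100a8-rich neutrophils in tags 3, 4, 1 and 2. They carried 372 to 9685 molecules of the shared genes each, with a median of 2054, and a median of 82 detected genes. Per tag the median was 2058 and 2143 molecules in tags 3 and 4 and 1952 and 2021 in tags 1 and 2. S100a8 made up 54.5 and 55.1% of their summed molecules in tags 3 and 4, against 51.9 and 52.1% in tags 1 and 2. Because the choice fixed that share, all other levels are given as molecules per 1000000 molecules other than S100a8, written CPM. The samples shared 37 cell indices, which 15 of the S100a8-rich neutrophils carried, and tags of 1 sample shared 0.

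Of the cells with an S100a8 share of at least 0.4, the Cd3 limit left out 405, 70, 92 and 66 in tags 3, 4, 1 and 2. The Chil3 limit left out 216, 54, 44 and 38, and the Lgals1 limit 3, 4, 2 and 3, with some cells over more than 1 limit. Among the cells kept, 363 held 1 Cd3 molecule. Chil3 was at 0 in 1493 of them, at 1 molecule in 102 and at 2 in 46. At the lower edge, the 164 cells with a share of 0.4 to 0.42 had 12294 CPM of S100a9, 1228 of Cxcr2, 3761 of Mmp9 and 12718 of Il1rn. The 181 cells just under it, at 0.38 to 0.4, had 10855 CPM of S100a9, 1282 of Cxcr2, 3709 of Mmp9 and 16239 of Il1rn. Cxcr2 and Mmp9 were thus close on both sides of the threshold, while S100a9 was somewhat higher and Il1rn lower inside it.

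Comparison sets were defined by the same kind of rule. The S100a8-intermediate set (2342 cells) met every condition except that its S100a8 share was 0.2 to under 0.4. The S100a8-low set (2582 cells) likewise had a share of 0.05 to under 0.2, at least 1 molecule of Cxcr2, Cxcr1 or Il1r2 and none of C1qa or C1qb. The Chil3-positive set (128 cells) met every condition except that it held at least 3 molecules of Chil3. A macrophage-like set (332 cells, at least 3 molecules of C1qa and C1qb) and a T cell-like set (821 cells, at least 3 molecules of Cd3), both with an S100a8 share under 0.2, showed how much neutrophil RNA was counted in other cells.

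The label was checked on S100a9 and Cxcr2. S100a9 stood at 15093, 14660.3, 16445 and 15398 CPM in the S100a8-rich neutrophils of tags 3, 4, 1 and 2, against 161 to 269.6 CPM in macrophage-like and 487 to 1314 CPM in T cell-like cells. Cxcr2, the receptor for Cxcl1 and Cxcl2, reached 1962, 1676, 2369 and 2235 CPM, against 9.11 to 20.3 CPM in macrophage-like and 44.3 to 111 CPM in T cell-like cells. After each cell was thinned to 500 molecules, Cxcr2 was seen in 32.9, 27.7, 41.1 and 34.8% of S100a8-rich neutrophils, against 0 to 6.45% of macrophage-like and 3.66 to 4.17% of T cell-like cells. Unthinned, those shares were 71.2, 66.1, 72.5 and 71.3% in S100a8-rich neutrophils, at median depths of 2058, 2143, 1952 and 2021 molecules. They were 3.85 to 10.8% in macrophage-like cells, at median depths of 3544 to 5582 molecules, and 5.24 to 8.23% in T cell-like cells, at 935 to 1654 molecules. Thinning left out 8, 1, 3 and 2 S100a8-rich neutrophils under 500 molecules. Both markers named in the label were thus far above the level of the macrophage-like and T cell-like cells in every tag.

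The granulocyte colony-stimulating factor receptor Csf3r, read in tags 2 to 4, was at 35391 and 33956 CPM in tags 3 and 4 and 32111 CPM in tag 2. Of the listed granule and immature cell genes, 5 were in the shared tables and 4 were measured in comparisons of sets. Over the intermediate set 1 of the 4 was at least 1.5-fold higher in all 4 tags (Lyz2). The list median there was 1.39 on the log2 scale. Over the Chil3-positive set 0 were higher and 2 lower (Lyz2, Cd63), with a list median of -2.07. Kit was at 154, 171, 145 and 199 CPM in tags 3, 4, 1 and 2. Elane, the neutrophil elastase gene of promyelocytes, was counted 803 times, and 1 cell of tag 3 held 98.5% of those molecules. Elane was therefore near 0 in the other S100a8-rich neutrophils, with 2, 3 and 0 molecules in tags 4, 1 and 2. The proliferation gene Mki67 was at 56.3, 0, 33.6 and 11.7 CPM in tags 3, 4, 1 and 2, against 1939, 868, 0 and 204 CPM in the Chil3-positive set. Mpo, Ltf, Camp, Ngp and Lcn2, granule genes of maturing neutrophils, were not analysed here, so maturity was checked on few genes. Among these few, Kit was not called lower than in the Chil3-positive set. Its log2 ratios of molecules per cell were 0.23, 0.004, 0.05 and -0.40 in tags 3, 4, 1 and 2. With S100a8 counted in the scale Kit passed as higher than in that set, and it also passed as higher than in the low set. Csf3r was at 15231 and 16463 CPM in tags 3 and 4 and 16599 CPM in tag 2 of the Chil3-positive set, under its level in the S100a8-rich neutrophils. Chil3-positive cells held 1841, 2043 and 1751 molecules other than S100a8 per cell in tags 3, 4 and 2. S100a8-rich neutrophils held 1058, 1066 and 1086, so the lower Csf3r CPM does not give a lower number of molecules per cell. On the CPM scale Cxcr2 did not separate these sets, with log2 ratios over the Chil3-positive set of 0.19, 0.43, -0.06 and 0.02 in tags 3, 4, 1 and 2. As molecules per cell, Cxcr2 was lower in the S100a8-rich neutrophils, with log2 ratios of -0.61, -0.51, -0.95 and -0.67 in those tags. S100a9 was lower per cell as well, with log2 ratios of -1.09, -1.26, -0.98 and -0.96 in the same order.

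Markers of macrophages and T cells were low beside the sets of those cells. No set was defined for the other cell types, so their sums stand without such a reference. The 8 macrophage markers in the shared tables summed to 59.0 and 132 CPM in tags 3 and 4 and 298 and 187.7 CPM in tags 1 and 2, against 18094 to 26510 CPM in macrophage-like cells. C1qa and C1qb, by which the macrophage-like set was chosen, are among these markers, so part of that contrast was set by the choice. The 13 T cell markers summed to 281 to 503 CPM, against 30029 to 54931 CPM in T cell-like cells. They include Cd3d, Cd3e and Cd3g, which were limited in the S100a8-rich neutrophils and required in the T cell-like set. Part of that contrast was thus fixed by the rules as well. The 4 shared tumour cell markers (Lgals1, Lmna, Spp1, Fn1) summed to 2821 and 1558 CPM in tags 3 and 4 and 7021 and 6940 CPM in tags 1 and 2. The 7 B cell markers summed to 35.4, 327, 67.2 and 46.9 CPM in tags 3, 4, 1 and 2. In the same order, the 7 natural killer cell markers summed to 232, 58.6, 123 and 246 CPM. The 6 dendritic cell markers summed to 59.0, 181, 85.8 and 52.8 CPM. Mast cell, basophil and eosinophil markers, 6 in all, summed to 14.7 to 41.1 CPM. Of these lists, only Ms4a1 (B cell), Fcer1a (mast cell and basophil) and Il12b (dendritic cell) were at 0 in the S100a8-rich neutrophils. The summed macrophage and tumour markers were thus higher in the no-anti-PD-1 pool, and that difference runs alongside each comparison between pools below. Lgals1, which the rule limited, made up 687, 542, 3705 and 3297 CPM of the tumour sums in tags 3, 4, 1 and 2. At least 1 Lgals1 molecule was seen in 36.0, 31.8, 92.4 and 89.8% of the S100a8-rich neutrophils of those tags. Ccr2 gave 127 CPM of the macrophage sum in tag 1, and 1 cell held 46.6% of all Ccr2 molecules of the S100a8-rich neutrophils.

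The S100a8-rich neutrophils were a larger share of the anti-PD-1 pool. They were 15.7% (95% exact interval 14.9 to 16.6) and 13.2% (11.5 to 15.1) of all cells in tags 3 and 4, against 10.3% (9.15 to 11.6) and 10.4% (8.87 to 12.04) in tags 1 and 2. Pool means were 14.5 and 10.3%, a difference of 4.12 percentage points and a ratio of 1.40. Against the 4 neutrophil sets together they were 27.1% (25.7 to 28.5) and 28.2% (24.8 to 31.7) in tags 3 and 4, against 18.9% (16.8 to 21.1) and 18.6% (16.1 to 21.4) in tags 1 and 2. Tumour cells and other immune cells are not in this denominator, and the pool means differed by 8.84 points, a ratio of 1.47. The intervals cover counting error only, and with 1 sample per pool the difference has no replicate check.

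The intermediate and low sets were smaller shares of the anti-PD-1 pool. Of the 4 neutrophil sets, intermediate cells averaged 33.5% in the anti-PD-1 pool and 36.6% in the no-anti-PD-1 pool, and low cells 36.3% in the anti-PD-1 pool and 43.0% in the no-anti-PD-1 pool. Chil3-positive cells averaged 2.55% in the anti-PD-1 pool and 1.58% in the no-anti-PD-1 pool. Before any of the other conditions, cells with an S100a8 share of at least 0.4 were 23.0 and 19.6% of all cells in tags 3 and 4, against 15.0 and 15.7% in tags 1 and 2.

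**Figure D1:**
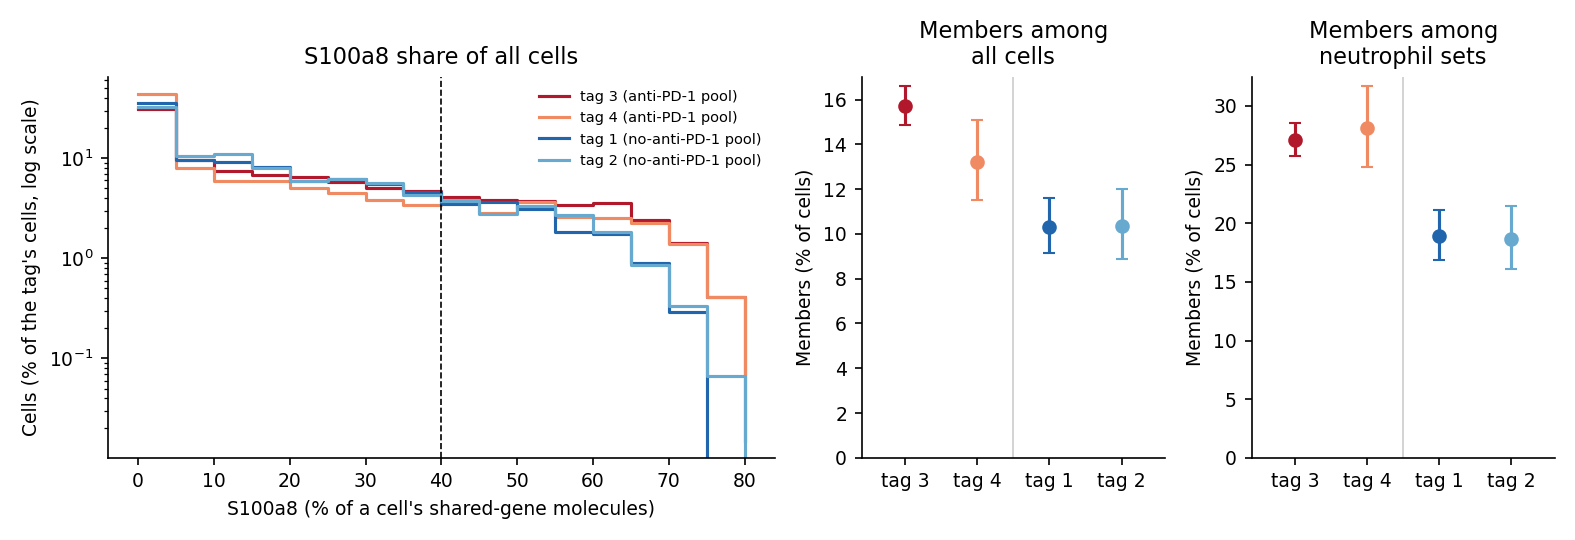
Left, share of S100a8 among a cell's shared-gene molecules (x axis, bins of 5 percentage points) against the percent of each tag's cells (log y axis), with the threshold of 40% dashed. Middle and right, S100a8-rich neutrophils as a percent of all cells and of the 4 neutrophil sets per tag, with exact 95% intervals that cover counting error only; tags 3 and 4 lie above tags 1 and 2 in both.

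All shared genes other than S100a8 gave on average 1058, 1066, 1068 and 1086 molecules per S100a8-rich cell in tags 3, 4, 1 and 2, against 1005, 987, 1131 and 1077 per intermediate cell and 952 to 1035 per low cell. A ratio of CPM to those sets is therefore close to a ratio of molecules per cell. Chil3-positive cells held 1841, 2043, 1989 and 1751 such molecules, so for that set the counts of called genes are given on both scales. The S100a8 molecules themselves, 1268, 1308, 1155 and 1182 per S100a8-rich cell, follow from the rule. When S100a8 is counted in the scale, every other ratio to the intermediate set is lower, and the median over measured genes moves to -0.53 on the log2 scale, against 0.07 without it and -0.08 with TMM scaling.

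Beyond S100a8, the S100a8-rich neutrophils had more Cxcr2, Mmp9, Lyz2 and adhesion receptor RNA and less Cxcl2, Ccl3, Ccl4, Il1a and Il1rn RNA than the intermediate set. Of 276 measured genes (at least 30 molecules), 24 (8.7%) were at least 1.5-fold higher in all 4 tags and 10 (3.62%) at least 1.5-fold lower. Among the 18 neutrophil receptor and maturity genes, 5 were higher (Cxcr2, Itgb2, Mmp9, Trem1, Selplg) and 1 was lower (Icam1), with a list median of 0.20 log2 beside 0.07 for all measured genes. Among the 12 measured chemokines 0 were higher and 3 lower (Ccl3, Ccl4, Cxcl2), with a list median of -0.68. Among the 12 measured genes of the interleukin 1 and inflammatory cytokine list 0 were higher and 3 lower (Il1a, Il1rn, Nlrp3), with a list median of -0.38. TMM scaling took 6 of the 24 higher genes (Itgb2, Trem1, Cd33, Ifitm2, Myd88 and Lgals3) under the rule. It raised the lower genes from 10 to 15, adding Cd274, Csf1, Egr1, Hmox1 and Tfrc. Counting S100a8 in the scale took 18 under it, Cxcr2, Mmp9, Itgb2, Trem1 and Selplg among them.

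Matrix metalloproteinase 9 (Mmp9), a protease of the tertiary granules, was at 6960.4, 7655, 7719 and 6646 CPM in S100a8-rich neutrophils of tags 3, 4, 1 and 2, against 2499, 2336, 3264 and 3021 CPM in intermediate cells. The tag values of the sets did not overlap, and the log2 ratios were 1.48, 1.71, 1.24 and 1.14. Lysozyme (Lyz2), a bactericidal enzyme of granules, was at 9007, 9164, 10438 and 8212 CPM against 2223, 2961, 2118 and 1881 CPM in intermediate cells, with log2 ratios of 2.02, 1.63, 2.30 and 2.13. Lysozyme was also abundant in macrophage-like cells, at 30872 to 45157 CPM, and in T cell-like cells, at 10368 to 28229 CPM. Cxcr2 gave log2 ratios of 1.07, 0.81, 1.06 and 0.88 over the 934, 953, 1134 and 1213 CPM of intermediate cells. The integrin beta 2 chain Itgb2, part of the adhesion receptors Mac-1 and LFA-1, had log2 ratios of 0.95, 1.11, 0.78 and 0.76. Trem1, a receptor that amplifies inflammatory signals, had 0.88, 0.84, 0.75 and 0.73. PSGL-1 (Selplg), a ligand that leukocytes use for rolling, had 1.18, 1.25, 1.07 and 1.07.

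S100a9, the partner of S100a8, fell short of the rule. It was at 9184, 9370.3, 10207 and 10717 CPM in intermediate cells of tags 3, 4, 1 and 2, and its mean log2 ratio was 0.64, with 0.52 in tag 2. Against the low set, at 5964 to 6627 CPM, S100a9 was higher in all 4 tags with a mean log2 ratio of 1.29. Il1r2, the decoy receptor for interleukin 1, did not pass, with a mean log2 ratio of 0.20 over the intermediate set.

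Genes outside the receptor list were also higher. Mgst1, a membrane-bound glutathione transferase, was at 4324, 4372, 3928 and 4188 CPM in S100a8-rich neutrophils of tags 3, 4, 1 and 2, against 1375, 1492, 1714 and 1418 CPM in intermediate cells. The interferon-induced membrane protein Ifitm3, which restricts virus entry, was at 22598, 24279, 22783 and 20895 CPM against 10232, 10306, 11226 and 10852 CPM in intermediate cells, and its relative Ifitm2 had log2 ratios of 0.65 to 0.92. These 2 were the only genes called among 9 measured interferon response genes, whose list median was 0.01, so the list as a whole lay at the level of all genes. The glycoprotein Cd52 had log2 ratios of 0.97 to 1.11, and the adaptor of Toll-like receptors Myd88 of 0.69 to 1.01. The largest ratios belonged to genes of low level, the amino acid transporter Slc7a7 at 98.9 to 137 CPM and the ectoenzyme Cd38 at 34.5 to 59.7 CPM, with mean log2 ratios of 2.24 and 2.19. Chil3 and Cd3d, which also passed, were limited by the rule itself and are given here only to complete the count. The remaining genes called higher were Anxa5, Atf6b, Bin2, Cd33, Fam65b, Igbp1, Lgals3, Nt5e and Tnfrsf13b.

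Cxcl2, a chemokine that attracts neutrophils through Cxcr2, was at 33338, 33986, 42287 and 49621 CPM in S100a8-rich neutrophils of tags 3, 4, 1 and 2, against 61526, 54931, 67393 and 75037 CPM in intermediate cells. In the low set Cxcl2 reached 89104 to 95856 CPM, so the level was ordered over the 3 sets in each tag. Ccl3, which attracts monocytes and lymphocytes, was at 5859, 5525, 7767 and 7708 CPM against 15373, 14156, 15809.9 and 19966 CPM in intermediate and 26218 to 27842 CPM in low cells. Its close relative Ccl4 gave log2 ratios of -1.28, -1.87, -1.48 and -1.01 to the intermediate set. The interleukin 1 receptor antagonist Il1rn was at 7656, 7533, 12554 and 13222 CPM against 19686, 18275, 23104 and 24283 CPM in intermediate and 26858 to 34719 CPM in low cells. Interleukin 1 alpha (Il1a) had a mean log2 ratio of -1.19 to the intermediate set, the inflammasome sensor Nlrp3 of -0.90 and the adhesion molecule Icam1, known to mark activated neutrophils, of -1.35. The survival factor Bcl2a1a, the cytokine Il15 and the receptor Tnfrsf9 completed the 10 lower genes. Cxcl2 was under the rule with an S100a8 threshold of 0.35, without the deepest cells, or as molecules per cell.

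Few or no genes of the other groups passed this rule. The PD-1 ligand gene Cd274 was at 5473, 5989, 5827 and 5291 CPM in S100a8-rich neutrophils against 9047, 8627, 9192 and 9948 CPM in intermediate cells, a mean log2 ratio of -0.71 that missed 1.5-fold in tag 4. Cd274 did pass as lower with TMM scaling, with S100a8 counted in the scale and with an S100a8 threshold of 0.5. It also passed against the low set and without tag 4. Among 14 measured genes of the tumour-associated neutrophil and hypoxia list, 1 was higher (Nt5e, the ectoenzyme that makes adenosine) and 3 were lower, the chemokines already named, with a list median of -0.27. Of 12 immediate early and stress response genes 0 passed in either direction, with a list median of -0.36, and likewise 0 of 6 class II and 0 of 7 proliferation genes.

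Replacing the intermediate set with the low set raised the counts to 42 higher and 19 lower genes, of which 22 and 9 were among those called against the intermediate set. With S100a8 counted in the scale, 6 genes were higher (Bin2, Cd38, Chil3, Lyz2, Mgst1, Slc7a7) and 52 lower, so the higher calls of Cxcr2, Mmp9 and the other receptors hold on the scale without S100a8 and not on the other.

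**Figure D2:**
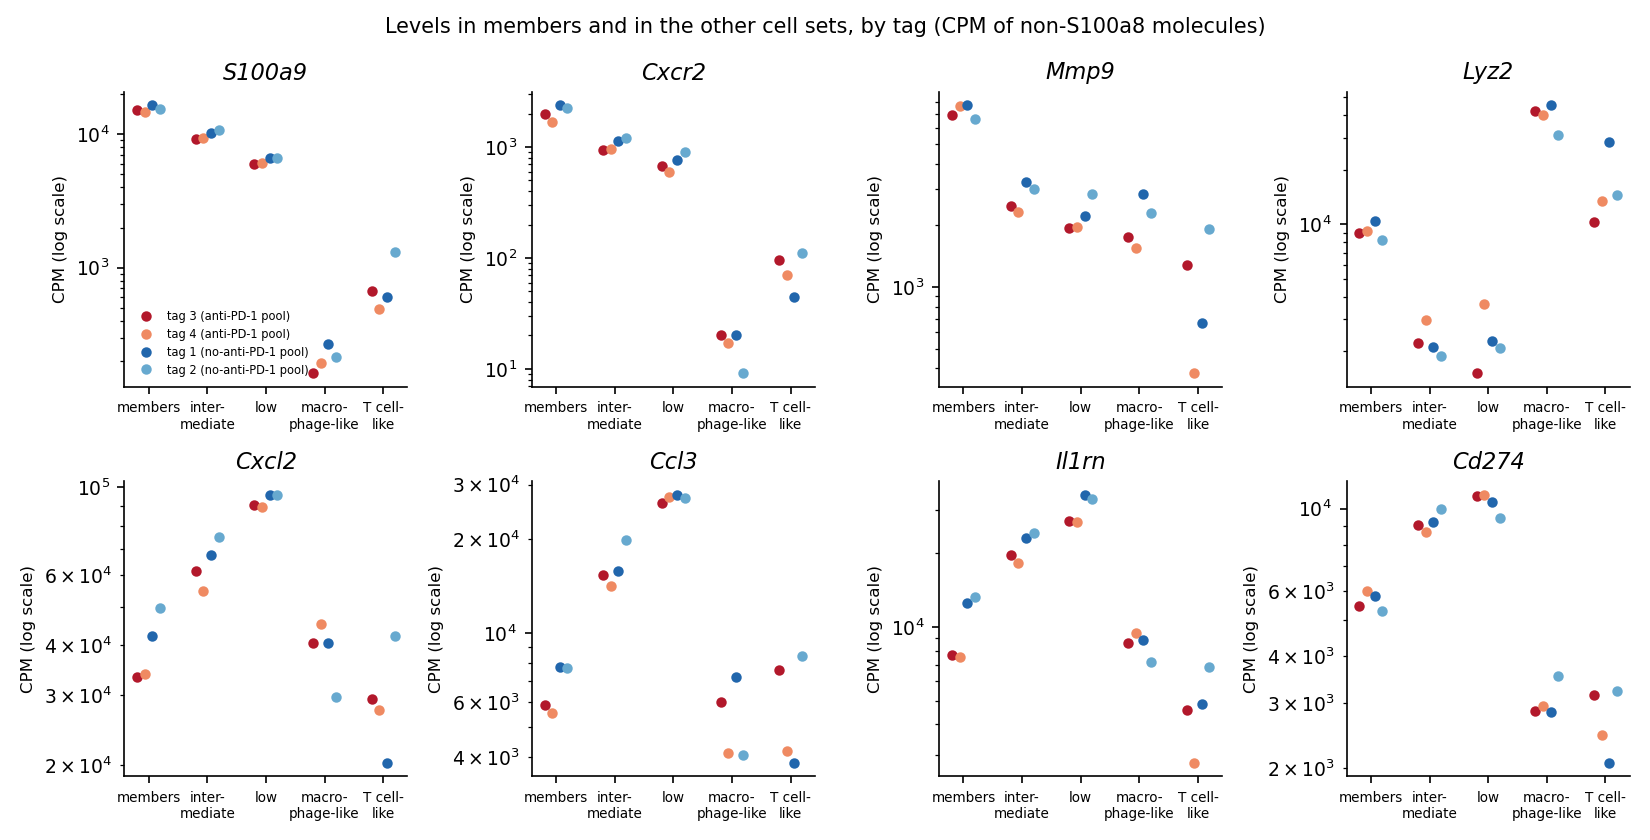
CPM without S100a8 (log y axis) of 8 genes in S100a8-rich neutrophils (members), intermediate, low, macrophage-like and T cell-like cells (x axis), 1 point per tag. Chil3-positive cells are not shown. Among the sets shown, S100a9 and Cxcr2 are highest in the S100a8-rich neutrophils in every tag. Cxcl2, Ccl3 and Il1rn are highest in the low set.

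**Figure D3:**
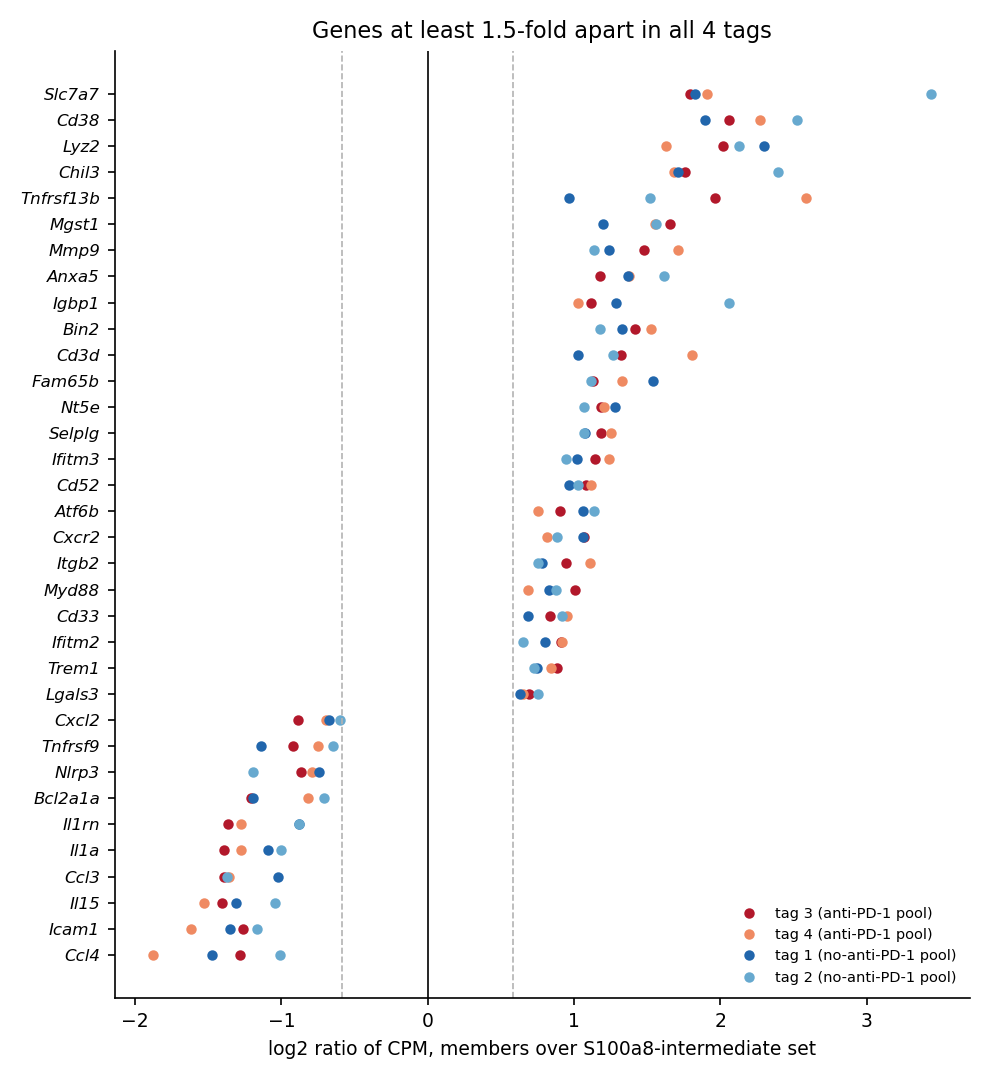
The 34 genes at least 1.5-fold apart between S100a8-rich neutrophils and the intermediate set in all 4 tags (y axis) with their log2 ratio of CPM in each tag (x axis, dashed lines at 1.5-fold). Lyz2 lies between 1.63 and 2.30 and Ccl4 between -1.87 and -1.01.

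Start-site sequences are shown for S100a9, whose gene pairs with the selecting gene, and for Cxcl2 and Il1rn, the most abundant genes that were lower in S100a8-rich neutrophils. They come from RefSeq on GRCm38.p6 and run from 250 bases before to 50 after the start site. Capitals mark matches to the C/EBP motif TTNNGCAA in S100a9 and to the NF-kB motif (GGG, then any 2 bases, then TTTCC) in the other genes, each searched on both strands. S100a9 lies on chr3:90695672-90695971, minus strand, with 1 C/EBP match on the opposite strand that begins 236 bases before the start site. Cxcl2 lies on chr5:90903649-90903948, plus strand, with 2 NF-kB matches that begin 97 and 78 bases before it. Il1rn is shown at chr2:24345121-24345420, plus strand, with 1 match that begins 51 bases before that start site. Of its other listed start sites, the window chr2:24345041-24345340 holds the same match after the start site, and chr2:24336610-24336909 holds 0 matches. Of all 32851 RefSeq windows of this length, 10.8% held the C/EBP motif and 1.63% the NF-kB motif. The S100a8 window held 0 C/EBP matches and those of Ccl3, Icam1, Il1a, Nlrp3 and Bcl2a1a held 0 NF-kB matches, which says only that these letters are not in those windows.
S100a9: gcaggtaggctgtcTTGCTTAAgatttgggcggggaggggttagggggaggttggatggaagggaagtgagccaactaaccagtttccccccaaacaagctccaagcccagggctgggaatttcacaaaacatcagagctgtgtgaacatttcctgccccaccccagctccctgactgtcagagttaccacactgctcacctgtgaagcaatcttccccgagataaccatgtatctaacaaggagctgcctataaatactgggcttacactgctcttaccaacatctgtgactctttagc
Cxcl2: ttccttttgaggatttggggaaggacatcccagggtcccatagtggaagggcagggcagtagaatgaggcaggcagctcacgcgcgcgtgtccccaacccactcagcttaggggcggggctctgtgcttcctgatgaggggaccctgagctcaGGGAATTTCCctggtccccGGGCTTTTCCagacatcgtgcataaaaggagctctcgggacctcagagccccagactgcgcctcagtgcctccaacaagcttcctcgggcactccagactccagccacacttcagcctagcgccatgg
Il1rn: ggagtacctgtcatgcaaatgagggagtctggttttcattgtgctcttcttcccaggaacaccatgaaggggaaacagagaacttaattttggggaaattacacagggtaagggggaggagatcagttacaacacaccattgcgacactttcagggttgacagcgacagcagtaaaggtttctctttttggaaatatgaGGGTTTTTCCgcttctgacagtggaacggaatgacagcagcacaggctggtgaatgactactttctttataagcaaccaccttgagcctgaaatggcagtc

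The antibody targets were read as well. Siglece encodes Siglec-E, an inhibitory receptor for sialic acids, and was counted in tags 2 to 4. It was at 1524 and 1656 CPM in S100a8-rich neutrophils of tags 3 and 4 and 1191 CPM in tag 2, against 786, 785 and 478 CPM in intermediate and 548, 519.7 and 448 CPM in low cells. Macrophage-like cells had 78.5, 130.4 and 150.2 CPM. Against the Chil3-positive set, Siglece was not higher, with log2 ratios of CPM of -0.29 and -0.01 in tags 3 and 4 and -0.45 in tag 2. Siglece was 1 of 2 genes (3.85% of 52 measured in tags 2 to 4) that were at least 1.5-fold higher than in the intermediate set in each of those tags, beside the adhesion gene Cdh1, with log2 ratios of 0.95 and 1.08 in tags 3 and 4 and 1.32 in tag 2. The 3 lower genes (5.77%) were Aif1, the chemerin-binding receptor Ccrl2 and the interferon-induced gene Rsad2. Cd33, another sialic acid receptor, was at 3715, 3625, 3410 and 3572 CPM in S100a8-rich neutrophils of tags 3, 4, 1 and 2 and passed in all 4 tags with a mean log2 ratio of 0.85. Pdcd1, the gene of PD-1, had 6 and 3 molecules in tags 3 and 4 and 0 in tags 1 and 2, and was thus close to undetected, against 1542 to 4156 CPM in T cell-like cells. Siglec1 was at 0 in tags 3, 4 and 2.

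The S100a8-rich neutrophils also varied among themselves. In bands of S100a8 share of 0.4 to 0.5, 0.5 to 0.6 and 0.6 and over, the top band held 23.6 and 27.6% of them in tags 3 and 4, against 15.5 and 11.5% in tags 1 and 2. The lowest band held 42.8 and 41.7% in tags 3 and 4, against 54.2 and 47.1% in tags 1 and 2. Median depth was higher with the S100a8 share, at 1708.5 to 1831 molecules in the lowest band and 2478 to 2823.5 in the top band. Of 224 measured genes, 20 were higher in each successive band in all 4 tags and 14 lower.

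Mmp9 was at 4034, 4573, 5305 and 4828 CPM in the lowest band of tags 3, 4, 1 and 2, and at 12617, 13295, 11481 and 12439 CPM in the top band. Lyz2 was at 4547, 5157, 5563 and 5611 CPM in the lowest and 19015, 17072, 28526 and 16334 CPM in the top band. S100a9 was 1.43 to 1.76 times as high in the top as in the lowest band, and the integrin alpha M chain Itgam, which pairs with Itgb2, 1.61 to 2.33 times. The granule genes Mmp9 and Lyz2 and the integrin chain Itgam thus went with the S100a8 share inside the selected cells too. The others of the 20 were Cd52, Chil3, Ctsd, Dock8, Fam65b, Gapdh, Ifitm2, Ifitm3, Itgb2, Klra17, Lgals1, Lgals3, Mgst1, Myd88, Stat3 and Trem1.

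Cxcl2 was lower in each successive band, with a top over lowest ratio of 0.44, 0.48, 0.62 and 0.59 in tags 3, 4, 1 and 2. Il1a had ratios of 0.29, 0.18, 0.20 and 0.44, and Cd274 of 0.40, 0.47, 0.61 and 0.41. The growth factor Csf1, which sustains macrophages, had 0.40, 0.32, 0.41 and 0.25. The ferritin heavy chain Fth1, the most abundant gene on this scale, had 0.75, 0.79, 0.69 and 0.85. The others of the 14 were Adgre1, Btg1, Ccr1, Clec4e, Hif1a, Jun, Nlrp3, Nod1 and Tnfsf14. Cxcr2 was 1.43 to 2.65 times as high in the top band but not ordered in tag 1, and Ccl4, at 0.19 to 0.28 times, was not ordered in tag 4.

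**Figure D4:**
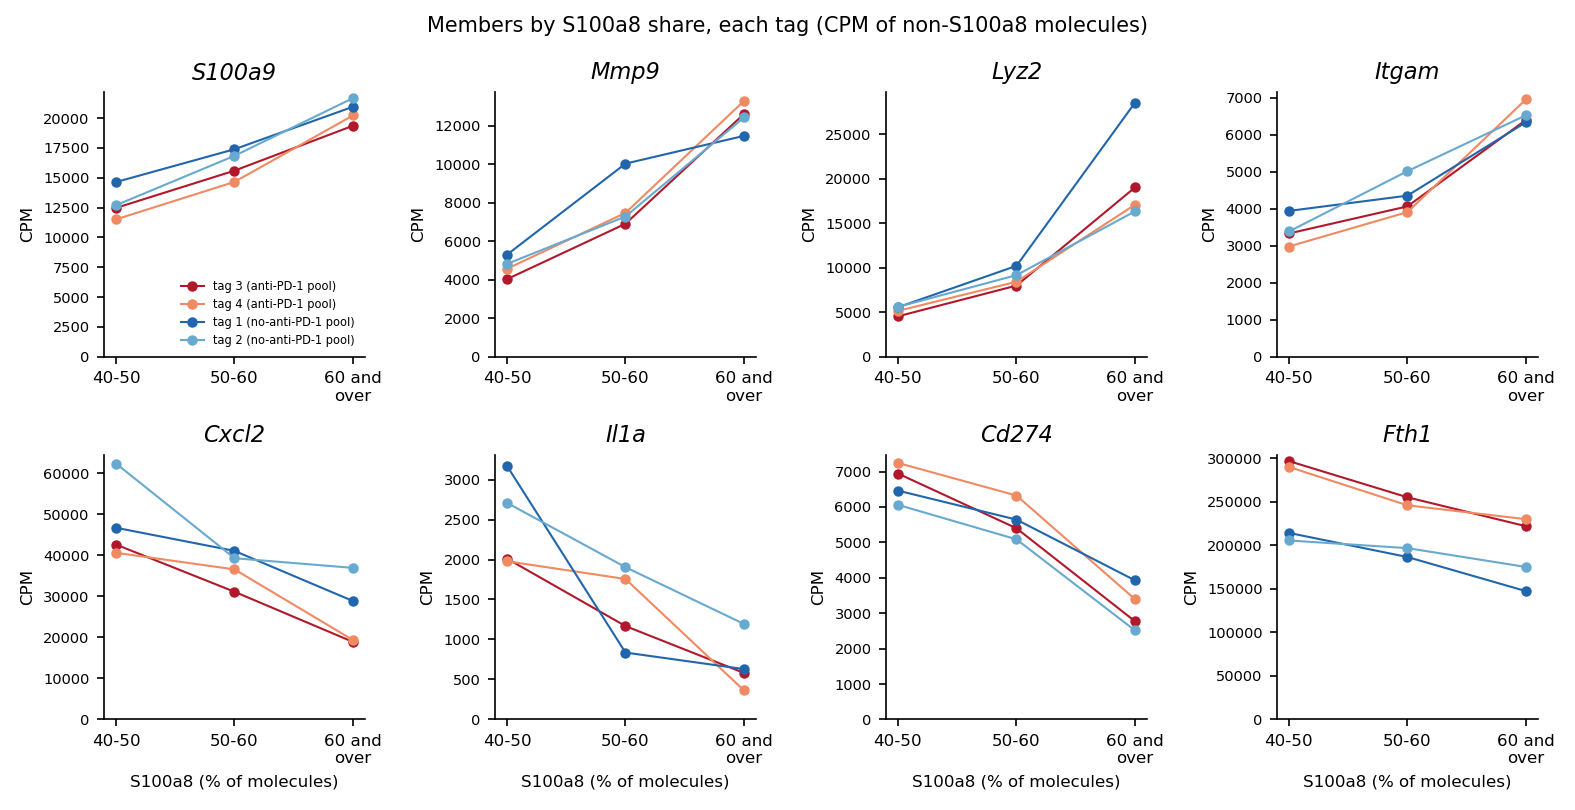
CPM without S100a8 (y axis) of 8 genes in S100a8-rich neutrophils split by their S100a8 share (x axis, percent of molecules), 1 line per tag. S100a9, Mmp9, Lyz2 and Itgam are higher and Cxcl2, Il1a, Cd274 and Fth1 lower in each successive band of every tag.

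Between pools, the S100a8-rich neutrophils of the anti-PD-1 pool had less Il1b, Il1rn and Cxcl1 RNA and more Irf7 RNA. A gene was called where tags 3 and 4 both lay above, or both below, tags 1 and 2, with 1.5-fold or more between the closest values of the pools. Of 224 measured genes 4 (1.79%) were higher in tags 3 and 4 by this rule and 17 (7.59%) were lower, with a median log2 ratio of -0.17 over all measured genes. Fth1 stood at 265528 and 261633 CPM in tags 3 and 4, against 195455 and 198637 CPM in tags 1 and 2, a nearest-tag ratio of 1.32 that is under the rule, and it took up a large part of the scale. Under TMM scaling that median was -0.01, and 5 genes were higher and 12 lower.

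Among 11 measured genes of the interleukin 1 and inflammatory cytokine list, 0 were higher and 4 lower (Il1b, Il1rn, Il6, Il12a), with a list median of -0.59. Il1rn was at 7656 (7493 to 7821) and 7533 (7162 to 7918) CPM in tags 3 and 4 (95% exact intervals in brackets), against 12554 (12133 to 12985) and 13222 (12682 to 13779.5) CPM in tags 1 and 2. The pools did not overlap and the log2 ratio was -0.76. Il1rn fell under the rule with TMM scaling, where the closest tags were 1.41-fold apart, and with an S100a8 threshold of 0.5. Il1b, interleukin 1 beta itself, was at 394 (358 to 433) and 352 (275 to 443) CPM in tags 3 and 4, against 795 (691 to 909) and 804 (675 to 950.05) CPM in tags 1 and 2, a log2 ratio of -1.10. Il12a was at 266 and 239 CPM in tags 3 and 4 against 433 and 411 CPM in tags 1 and 2. It was under the rule with TMM scaling, which left 2 lower genes in this list (Il1b and Il6), with S100a8 thresholds of 0.35 and 0.5, and in the subsets described further on. Il6 rested on 4 and 0 molecules in tags 3 and 4 and 17 and 9 in tags 1 and 2. The list holds both an agonist, Il1b, and the antagonist of the same receptor, Il1rn.

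Among 11 measured chemokines 0 were higher and 2 lower (Ccl2, Cxcl1), with a list median of -0.48. Cxcl1, which attracts neutrophils, was at 149.8 (128 to 174) and 161 (111 to 226) CPM in tags 3 and 4, against 668 (574 to 773) and 645 (530.3 to 778) CPM in tags 1 and 2, a log2 ratio of -2.08. Ccl2, a monocyte attractant, was at 114 and 68.4 CPM in tags 3 and 4 against 328 and 217 CPM in tags 1 and 2. Cxcl2 and Ccl3, the abundant chemokines of these cells, had log2 ratios of -0.45 and -0.44 and did not pass. Of the 18 receptor and maturity genes 0 passed in either direction, with a list median of -0.04, and Cxcr2 itself was at 1962 and 1676 CPM in tags 3 and 4 against 2369 and 2235 CPM in tags 1 and 2.

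Lgals1, 1 of the 17 lower genes, was limited by the rule, so its values only describe the selected cells. It was at 687 and 542 CPM in tags 3 and 4, against 3705 and 3297 CPM in tags 1 and 2. It is a galectin gene abundant in macrophage-like cells, at 27635 and 16651 CPM in tags 3 and 4 and 35965 and 41867 CPM in tags 1 and 2. The macrophage genes Arg1 (34.5 and 29.3 CPM in tags 3 and 4 against 313 and 346 CPM in tags 1 and 2) and C1qb (7 and 1 molecules in tags 3 and 4 against 15 and 10 in tags 1 and 2) and the tumour list genes Lmna and Fn1 were lower as well. Crip1, read in tags 2 to 4, was at 279.6 and 234 CPM in tags 3 and 4 and 2728 CPM in tag 2. Arg1, C1qb, Lmna, Fn1 and Crip1 thus moved with the pool inside the S100a8-rich neutrophils, and their part in the differences of Il1rn, Il1b and Cxcl1 was not tested.

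In macrophage-like cells Cxcl1 was at 13970.5 and 8509.6 CPM in tags 3 and 4 and 19728 and 9697 CPM in tags 1 and 2. There Il1b was at 164 to 336 CPM and Il1rn at 7207 to 9468 CPM over the 4 tags. In the subset with 0 molecules of Lgals1, C1qa, C1qb and Arg1, chosen after the data were seen, 651 and 129 cells remained in tags 3 and 4 and 15 and 16 in tags 1 and 2. In that subset Il1rn was at 7725 and 8322 CPM in tags 3 and 4 against 13386 and 10448 CPM in tags 1 and 2, a nearest-tag ratio of 1.26 that no longer passed. Il1b rested there on 271 and 47 molecules in tags 3 and 4 against 3 and 7 in tags 1 and 2, and Cxcl1 on 102 and 29 molecules in tags 3 and 4 against 9 and 12 in tags 1 and 2. For Il1b these are too few to read a lost or kept call from. Cxcl1 still passed the rule as lower in tags 3 and 4, with a nearest-tag ratio of 4.74. Its counting intervals did not overlap between the pools, but the call rests on few cells and molecules in tags 1 and 2.

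The pools also differed in how far the cells lay above the S100a8 threshold, and the comparison was repeated in the band of 0.4 to 0.5 alone, likewise chosen after the data were seen. Il1rn was at 10114 and 9686 CPM in tags 3 and 4 against 16557 and 15459.5 CPM in tags 1 and 2, and Il1b at 489.9 and 335 CPM in tags 3 and 4 against 962 and 989 CPM in tags 1 and 2. Both passed the rule within that band, as did Cxcl1 at 156 and 129.7 CPM in tags 3 and 4 against 572 and 565 CPM in tags 1 and 2. In the band of 0.6 and over, Il1rn was at 3942 and 3243 CPM in tags 3 and 4 against 7956 and 6408 CPM in tags 1 and 2 and passed as well.

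Irf7, a master regulator of type I interferon genes, was the interferon response gene that passed among 8 measured, with 0 lower and a list median of 0.08 beside -0.17 for all genes. It was at 3366 (3258 to 3476) and 3439 (3189.7 to 3703) CPM in tags 3 and 4, against 2209 (2034 to 2394) and 2000.3 (1794 to 2224) CPM in tags 1 and 2, a log2 ratio of 0.69. With S100a8 counted in the scale its nearest-tag ratio was 1.44, under the rule, and with TMM scaling 1.74. Irf7 was also under the rule with an S100a8 threshold of 0.35 and in the band of 0.4 to 0.5, at 3025 and 3373 CPM in tags 3 and 4 against 2433 and 1759 CPM in tags 1 and 2. In intermediate cells it was at 2800.3 and 3225 CPM in tags 3 and 4 against 2196 and 2172 CPM in tags 1 and 2. In macrophage-like cells Irf7 was at 1801 and 2018 CPM in tags 3 and 4 against 2063 and 2008 CPM in tags 1 and 2.

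Of the 43 genes measured in tags 2 to 4 alone, 5 (11.6%) were higher in both anti-PD-1 tags than in tag 2 and 5 (11.6%) lower. The interferon-induced genes Ifit1, at 39.9 and 39.1 CPM in tags 3 and 4 against 17.6 CPM in tag 2, and Ifit3, at 102 and 122 CPM in tags 3 and 4 against 58.7 CPM in tag 2, were among the higher ones. Tag 2 held 3 and 10 molecules of them, and their counting intervals overlapped. Other interferon-induced genes did not pass, with Ifit2 at 192 and 58.6 CPM in tags 3 and 4 against 135 CPM in tag 2 and Rsad2 at 234 and 151 CPM in tags 3 and 4 against 246 CPM in tag 2. The others were Cd83, Gpnmb and P2ry1, and 1 cell held 46.0% of the Gpnmb molecules and 1 cell 37.9% of the Cd83 molecules. The lower genes were Crip1, Epcam, S100a4, Sdc4 and the cystine transporter Slc7a11, at 2346 and 2120.1 CPM in tags 3 and 4 against 3555 CPM in tag 2.

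The other 3 higher genes of the 4-tag comparison rested on few cells or molecules. Of H2-Eb1 molecules 55.0% and of Ighm molecules 53.7% lay in 1 cell, and Il18r1 had 39 molecules in all. The other lower genes were Havcr2, Itgax, Mmp12, Pcna, S100a10 and Ybx3, of which Mmp12 had 27.9% of its molecules in 1 cell. Counts by list were 1 higher of 5 measured class II genes (H2-Eb1), 1 lower of 6 proliferation genes (Pcna), 1 lower of 14 tumour-associated neutrophil genes (Arg1), 1 lower of 6 inhibitory receptor genes (Havcr2) and 0 of 11 immediate early genes.

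**Figure D5:**
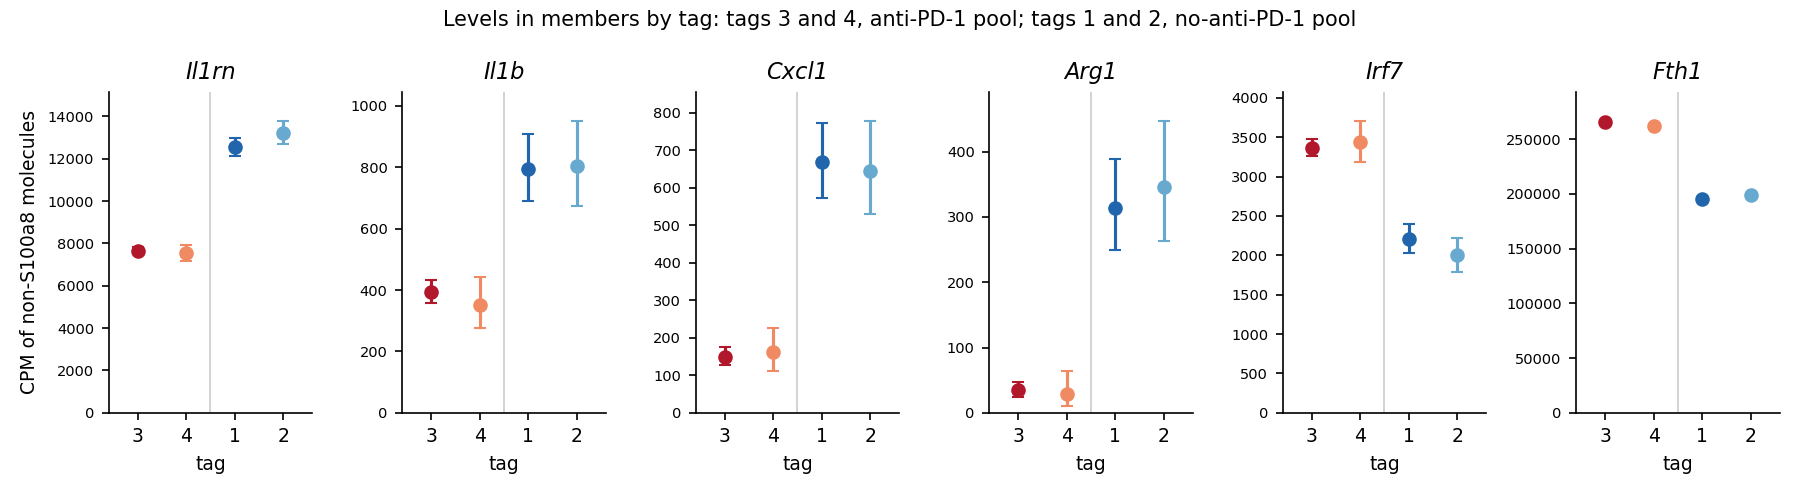
CPM without S100a8 (y axes from 0) of 6 genes in S100a8-rich neutrophils by tag (x axis), with exact Poisson 95% intervals that cover counting error only. Il1rn, Il1b, Cxcl1 and Arg1 are lower and Irf7 and Fth1 higher in tags 3 and 4 of the anti-PD-1 pool than in tags 1 and 2 of the no-anti-PD-1 pool.

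Within the no-anti-PD-1 pool few genes differed between tags. Of 162 measured genes 2 (1.23%) were at least 2-fold higher in tag 2 than in tag 1 (Il15ra and Mmp12) and 1 (0.617%) lower (Ccr2). Tag 1 was counted against another reference than tag 2. In the anti-PD-1 pool, of 206 genes 8 (3.88%) were at least 2-fold higher in tag 4 than in tag 3 and 18 (8.74%) lower. By list, 3 of 5 measured proliferation genes and 3 of 3 natural killer cell genes were lower and 2 of 2 B cell genes higher in tag 4. In several of the called genes 1 cell held most of the molecules, at 98.5% for Elane, 80.5% for Iglc3, 71.0% for Cd8a, 64.8% for Gzma and 62.8% for Xcl1. Osteopontin (Spp1), a tumour and macrophage product, had the highest level among them, at 782 CPM in tag 4 and 1740.1 CPM in tag 3. Of the 18 receptor and maturity genes 0 passed within either pool.

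Against the Chil3-positive set, the S100a8-rich neutrophils had less Lyz2, C3, Itgam and Itgb2 RNA on the scale without S100a8 and per cell, and a larger part of their RNA other than S100a8 was from 6 interleukin 1 family and cytokine genes. Of 239 measured genes 15 (6.28%) were higher in all 4 tags and 23 (9.62%) lower, beside a median log2 ratio of -0.39. Chil3-positive cells were deeper, with median molecules of 4799 to 5468 per tag, and there were 72, 22, 20 and 14 of them in tags 3, 4, 1 and 2. In the interleukin 1 and cytokine list 6 of 11 were higher (Il1a, Il1b, Il1rn, Il18, Nlrp3, Csf1) and 0 lower, with a list median of 0.90. Nlrp3 was at 881, 962, 832 and 675 CPM in S100a8-rich neutrophils of tags 3, 4, 1 and 2, against 317, 378, 226 and 40.8 CPM in Chil3-positive cells. The receptors Cxcr1 and Clec4d were higher and the integrin chains Itgam and Itgb2 lower. Lyz2 was at 9007, 9164, 10438 and 8212 CPM in S100a8-rich neutrophils, against 101811, 93261, 46604 and 21900.5 CPM in Chil3-positive cells. Complement C3 was at 2890.2, 2828, 3179 and 3068 CPM in S100a8-rich neutrophils, against 10908, 10679, 10331 and 7382 CPM in Chil3-positive cells, so both were lower in the S100a8-rich neutrophils of all 4 tags. With S100a8 counted in the scale 26 genes were higher and 10 lower, and Itgam and Itgb2 no longer passed. As molecules per cell, a scale chosen after the data were seen, 0 genes were higher and 68 lower, so the higher calls hold for the part of the RNA and not for the number of molecules in a cell. Per cell, the log2 ratios of Il1rn were 0.03, 0.03, -0.25 and 0.45 and those of Nlrp3 0.68, 0.41, 0.98 and 3.36 in tags 3, 4, 1 and 2. S100a9, Mmp9, Mgst1 and Ifitm3, not called on the scale without S100a8, were among the 68 genes lower per cell. Their mean log2 ratios were -1.07, -1.48, -1.50 and -1.35.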

How the data were processed

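Single cells of 2 samples were counted with a targeted panel of mouse immune genes on the BD Rhapsody system. The deposited values are counts of molecules per cell and gene after distribution-based error correction. Per the file headers, version 1.12.1 of BD's Rhapsody Targeted Analysis Pipeline wrote them, with cells already assigned to tags. The submitters' processing notes list Seurat 3.2.0. No aligner or genome build is given in these sources. Tag 1 was counted against another reference, so 396 shared genes were compared over 4 tags and 72 further genes in tags 2 to 4.

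Members and gene lists were chosen with earlier results of these data known. Counts were summed over the cells of a set in each tag and scaled to 1000000 molecules other than S100a8 (CPM; Python 3.11.15, pandas 2.3.3, numpy 2.4.6). Genes with under 30 molecules were left out. In ratios a tag with 0 molecules took the value of 3 and could not be the higher one. Differences were called at 1.5-fold between pools and sets and at 2-fold within a pool. With 1 sample per pool there is no test and no p-value, and tags are not replicates. Poisson and Clopper-Pearson 95% intervals (scipy 1.17.1) cover counting error only. Text names genes of the lists that passed a rule, up to 10 with the largest ratio in each direction, the most abundant genes, and the antibody targets; Fth1, Gapdh and other genes of the bands and Crip1 were added after their values were seen. TMM factors came from edgeR 4.0.16 (R 4.3.3). The rules were tested on simulated data. No doublet caller was run and no doublets were removed; an alternative leaves out cells above the 95th percentile of molecules of their tag. 1 gene of the receptor and maturity list is counted but not reported here.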

Additional observations from a re-analysis of the deposited data

How the results depend on the processing

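The alternatives were another S100a8 threshold, another scale, no molecule minimum, leaving out the deepest cells or 1 tag, and, added after the data were seen, the subsets given in the report and no Lgals1 limit. The pool difference in the share of S100a8-rich neutrophils stayed positive under every alternative run, at 2.87 to 5.38 points of all cells and 6.73 to 9.37 points of the neutrophil sets. Counts of genes between pools (4 higher and 17 lower) became 26 lower without a molecule minimum and 1 higher with a threshold of 0.35 or of 0.5. The genes themselves changed more than these counts. With a threshold of 0.5, 12 of the 17 lower genes were among the 20 then called. In the subset with 0 molecules of Lgals1, C1qa, C1qb and Arg1, which cannot keep those genes, 5 of the 17 were among 20. In the band of 0.4 to 0.5, 10 of the 17 lower and 0 of the 4 higher genes were kept. Leaving out 1 tag gave 6, 9, 7 and 9 higher and 28, 31, 25 and 25 lower genes without tags 1, 2, 3 and 4. Fewer tags then have to line up, and the measured genes changed as well, to 212, 217, 182 and 218. Against the intermediate set (24 higher and 10 lower), counting S100a8 in the scale gave 6 higher and 52 lower, the threshold of 0.5 gave 16 lower, and the low set in place of the intermediate set 42 higher and 19 lower. Without 1 tag, that comparison gave 26 to 33 higher and 11 to 16 lower genes. Against the Chil3-positive set (15 higher and 23 lower), counting S100a8 in the scale gave 26 higher and 10 lower, and molecules per cell, added after the data were seen, 0 higher and 68 lower. The cells of that set held more molecules. Against the intermediate set molecules per cell gave 23 higher and 10 lower. The cause of the threshold and low-set changes was not tested. Cxcr2 was seen in 34.2% of S100a8-rich neutrophils thinned to 500 molecules and in 19.9% thinned to 300. Depth limits genes near 30 molecules, such as C1qb, Il6 and Il18r1, whose intervals are wide. No paired analysis was possible because the result comes from no test and tags carry no shared replicate number.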
